A study of Mus musculus with 6 samples.

Results

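A set of 32 genes of glucose breakdown was followed from glucose uptake to lactate export and through the pentose phosphate branch, isozyme by isozyme, in marrow cells of mice with and without the NUP98-HOXD13 fusion. The 32 genes were taken by symbol from the deposited table of raw read counts, which lists 17523 genes, and all 32 had a row. They comprise 2 glucose transporters, 3 hexokinases, glucose phosphate isomerase, 3 phosphofructokinases, 3 enzymes that set the level of fructose 2,6-bisphosphate, 2 aldolases, triose phosphate isomerase, 6 enzymes of the payoff phase, 2 lactate dehydrogenase subunits, 3 pyruvate dehydrogenase kinases, 2 monocarboxylate transporters and 4 pentose phosphate enzymes. The genes were grouped by the step they serve.

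Total RNA libraries, 6 in all, from sorted bone marrow cells of C57BL/6 mice were compared, 3 labelled wild type (WT) and 3 labelled as the NHD13 mutant. NHD13 stands for NUP98-HOXD13, in which part of a nuclear pore protein is joined to a homeodomain protein. The series calls the cells haematopoietic stem cells (HSCs) and names neither the sort markers nor the age or sex of the animals. The sources used here give neither the promoter behind the fusion nor whether a library stands for 1 animal or several. The labels call the 3 libraries of a group replicates without saying that they came from separate animals, so p-values measure the spread between these libraries only. The row for the fusion held 0 counts in each WT library and 185, 179 and 167 counts in NHD13 replicates 1, 2 and 3.

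Glycolysis splits glucose into pyruvate and yields ATP and NADH without oxygen. Hexokinase and phosphofructokinase commit sugar to the path, pyruvate kinase ends it, and each of these steps is run by isozymes with their own tissue pattern and regulation. Lactate dehydrogenase turns pyruvate into lactate, pyruvate dehydrogenase kinases hold pyruvate back from the mitochondria, and monocarboxylate transporters carry lactate and pyruvate across the membrane. The pentose phosphate path branches off after hexokinase and supplies NADPH and ribose. Long-term HSCs are known for a strong reliance on glycolysis, mature red cells depend on it entirely, and neutrophils use both glycolysis and the NADPH of the pentose path.

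Library depth was 12541538 to 14388772 counts. NHD13 replicate 1 stood apart from the other NHD13 libraries: of the 3638 genes past the threshold in the fit described below, 72.9% had this library between WT and NHD13 replicates 2 and 3. Genes that mark sex also differed between libraries, with 5852, 13700 and 15472 counts of Xist in WT replicates 1 to 3 but 34, 28 and 9885 in NHD13 replicates 1 to 3, and with Y-linked genes at 0.0109 to 0.0194% of counts in WT and 0.0177 to 0.028% in NHD13. In WT the 15 long-term HSC markers examined summed to 352.7 to 382.9 CPM (counts scaled to a common library total, with TMM factors, here and below), of which Kit, a receptor of stem and progenitor cells, gave 243.8 to 269.5 CPM. Gfi1b had 41.2 to 46.8 CPM in WT, Ly6a 12.6 to 23.6, Hlf 13.4 to 16.4, Vwf 10.6 to 15.3 and Tie1 10.1 to 15.3. The other 9 were lower, and Procr, Fgd5, Hoxb5 and Esam were at most 0.745 CPM in any WT library. The 14 neutrophil genes examined summed to 48926 to 63212 CPM in WT. Some markers of the HSC label were thus present and others near 0, and the cells are called sorted marrow cells here. In such bulk samples fewer cells of a type and less RNA per cell cannot be told apart.

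Promoter sequence was examined because 10 of the genes moved, in both directions. Windows of 250 bases before RefSeq transcription starts (GRCm38.p6) were available for 31 of the 32 genes, 48 windows in all, and not for Slc2a3. They were searched on both strands for ACGTG and GCGTG, the cores of hypoxia response elements, and for CACGTG, the E-box bound by MYC and its relatives, which contains ACGTG on either strand. ACGTG occurred in 39.6% of the windows against 16.6% of all 32851 windows of that length, and GCGTG in 56.2% against 28.2%. Windows of the same gene can overlap, as in Eno1, and then hold the same site. The windows compared were not matched for base composition. At least 1 of these cores was present in 81.2% of the windows and in 29 of 31 genes, against 38.6% of all windows. The 3 genes that rose and the 7 that fell each had one, but a feature of nearly all these genes could hardly separate the directions. Taken singly, ACGTG was in 2 of the 3 that rose and 5 of the 7 that fell, and GCGTG in 3 and 3. CACGTG was in 2 of the 3 that rose and 0 of the 7 that fell. These differences between few genes were not tested. CACGTG was found in 12.5% of the windows against 6.02% of all, in Pfkm and Slc16a1, which rose, and in Ldha, Pdk2, Pfkfb2 and Pfkfb3, which did not pass the test. AGATAA, a form bound by GATA factors, was added to the search after the values had been seen. It occurred in 8.33% of the windows against 9.99% of all, in Pfkm and Pfkfb2. Other forms, such as TGATAA, were not searched and are not in capitals below, though the printed Pfkm and Slc16a1 windows hold TGATAA. Each match describes the letters of a window and is not a binding site shown by these data. Below are 1 window each of Pfkm and Slc16a1 (rose), Hk2, Hk3 and Pgk1 (fell), Ldha (did not pass the test) and the pyruvate kinase gene Pklr (rose), from RefSeq, 5′ to 3′ on the strand of the gene, with the searched letters, read on either strand, in capitals.
Pfkm, chr15:98092339-98092588, + strand: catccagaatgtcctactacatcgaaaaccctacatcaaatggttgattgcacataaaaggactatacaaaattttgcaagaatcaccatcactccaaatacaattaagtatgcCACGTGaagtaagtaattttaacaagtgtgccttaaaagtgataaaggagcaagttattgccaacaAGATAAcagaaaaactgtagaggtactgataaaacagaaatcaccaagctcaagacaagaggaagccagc
Slc16a1, chr3:104638414-104638663, + strand: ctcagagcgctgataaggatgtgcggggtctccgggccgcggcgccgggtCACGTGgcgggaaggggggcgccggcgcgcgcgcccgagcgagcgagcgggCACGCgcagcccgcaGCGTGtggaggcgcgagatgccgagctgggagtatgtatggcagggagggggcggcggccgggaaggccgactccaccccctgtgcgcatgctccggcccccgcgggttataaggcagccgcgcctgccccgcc
Hk2, chr6:82774455-82774704, - strand: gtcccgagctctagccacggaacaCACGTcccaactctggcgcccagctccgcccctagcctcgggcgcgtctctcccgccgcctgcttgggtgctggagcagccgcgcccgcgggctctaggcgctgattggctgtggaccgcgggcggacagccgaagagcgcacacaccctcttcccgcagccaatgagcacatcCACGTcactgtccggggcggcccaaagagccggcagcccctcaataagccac
Hk3, chr13:55021386-55021635, - strand: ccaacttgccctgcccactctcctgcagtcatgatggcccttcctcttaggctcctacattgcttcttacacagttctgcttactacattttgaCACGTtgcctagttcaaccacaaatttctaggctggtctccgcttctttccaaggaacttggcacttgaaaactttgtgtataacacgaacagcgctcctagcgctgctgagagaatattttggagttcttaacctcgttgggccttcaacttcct
Pgk1, chrX:106186850-106187099, + strand: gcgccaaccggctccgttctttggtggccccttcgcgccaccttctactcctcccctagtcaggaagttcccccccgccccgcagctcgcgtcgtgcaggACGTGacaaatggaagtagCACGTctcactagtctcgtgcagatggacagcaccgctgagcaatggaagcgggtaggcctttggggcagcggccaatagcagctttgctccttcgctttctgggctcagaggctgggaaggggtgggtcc
Ldha, chr7:46845554-46845803, + strand: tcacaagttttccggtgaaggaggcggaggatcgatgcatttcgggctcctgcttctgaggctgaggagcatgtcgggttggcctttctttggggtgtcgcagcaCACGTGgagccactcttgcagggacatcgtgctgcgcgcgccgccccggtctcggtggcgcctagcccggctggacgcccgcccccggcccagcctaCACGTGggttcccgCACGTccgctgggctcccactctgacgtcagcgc
Pklr, chr3:89135892-89136141, + strand: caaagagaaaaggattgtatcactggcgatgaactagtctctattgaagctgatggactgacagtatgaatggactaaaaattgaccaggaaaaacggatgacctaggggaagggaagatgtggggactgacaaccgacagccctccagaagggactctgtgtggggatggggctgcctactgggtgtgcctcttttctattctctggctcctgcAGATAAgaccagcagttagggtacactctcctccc
In the windows shown, Pfkm and Slc16a1 hold a whole E-box and Ldha holds a pair of them. Hk2, Hk3 and Pgk1 hold the ACGTG core alone, while the Pklr window holds AGATAA and no ACGTG or GCGTG. Hk1, which rose and is not shown, had neither ACGTG nor CACGTG in any window. Pfkp and G6pdx, which fell and are not shown, had no ACGTG either. The other windows of Pfkm held no CACGTG.

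Of the 32 genes, 31 had enough counts to be tested. Hk1, Pfkm and Slc16a1 were higher in NHD13 than in WT, Hk2, Hk3, Pfkp, Pgk1, Pgam1, Pkm and G6pdx were lower, and for 21 the adjusted p was not under 0.05 (quasi-likelihood test of edgeR, Benjamini-Hochberg adjustment over 12013 genes). The 10 genes are 32.3% of those tested, against 30.3% of all genes, of which 15.0% were higher and 15.3% lower, so the number called is no result about the pathway. The median change of the 31 genes was -0.11 on the log2 scale against 0.0 over all genes, with 11 above 0 and 20 below. Summed over the 32 genes, the share of scaled counts was 1.04, 1.1 and 1.04% in WT replicates 1 to 3 and 1.03, 0.963 and 0.914% in NHD13 replicates 1 to 3. All NHD13 libraries were below all WT libraries in this share, replicate 1 by the least.

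**Figure D1:**
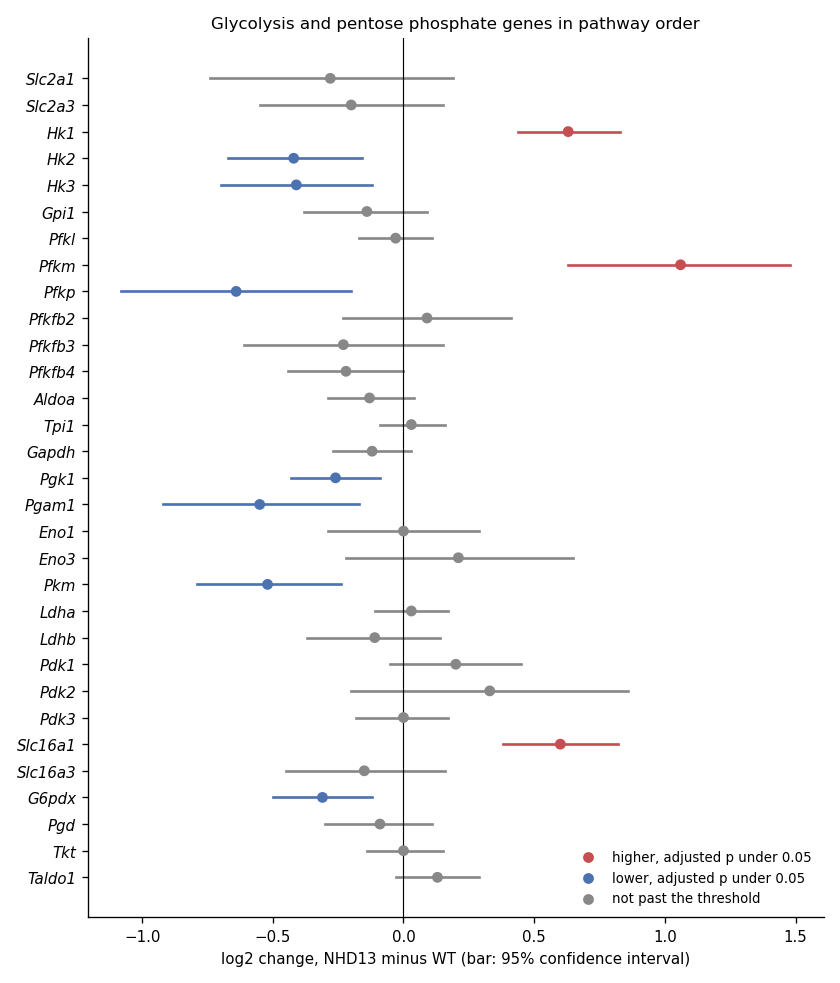
Change of each tested gene in pathway order, as log2 of NHD13 over WT (x axis) with its 95% confidence interval; red points were higher, blue points lower and grey points not past an adjusted p of 0.05. Hk1, Pfkm and Slc16a1 lie to the right and 7 genes to the left of 0, with opposite directions inside the hexokinase and phosphofructokinase families.

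The 10 genes past the threshold were also the 10 whose libraries did not overlap between the groups, where 46.1% of all genes tested had no overlap. In 9 of them NHD13 replicate 1 lay between WT and the other NHD13 libraries, and G6pdx was the exception. With the share of Y-linked counts as a covariate none of the 10 passed, although all kept their direction. Adjusted p ran from 0.053 for Hk1 to 0.323 for G6pdx (edgeR), and 2.38% of all genes passed in that fit. The SE was larger for all 10. On the log2 scale Hk1 changed by 0.68 (SE 0.14) with the covariate and 0.63 (SE 0.08) without it. Pfkm changed by 1.22 (SE 0.29) and 1.06 (SE 0.19). The change was smaller in size for Pgk1 (-0.25 with, -0.26 without) and G6pdx (-0.26, -0.31). It was 0.60 in both fits for Slc16a1 and larger for the others. The part of sex in these changes was not tested.

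**Figure D2:**
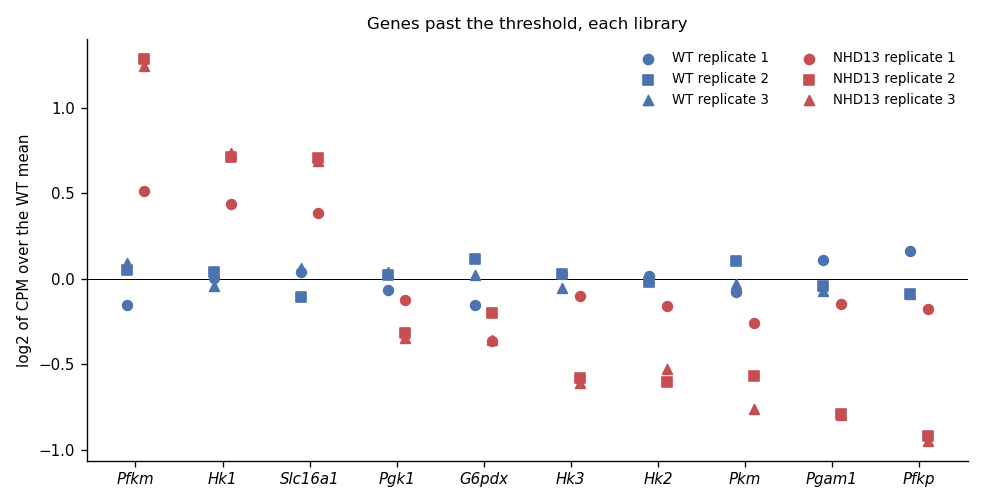
Each library's CPM over the WT mean, on a log2 scale (y axis), for the 10 genes past the threshold (x axis); circles, squares and triangles are replicates 1, 2 and 3, blue WT and red NHD13. NHD13 replicates 2 and 3 lie farthest from WT in every gene but G6pdx, and NHD13 replicate 1 lies between.

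Glucose enters through facilitative transporters. Slc2a1 (GLUT1), a transporter of many dividing cells, had 10.9, 12.7 and 13.3 CPM in WT replicates 1 to 3 and 13.8, 8.28 and 8.57 CPM in NHD13 replicates 1 to 3. Slc2a3 (GLUT3), a high-affinity transporter, had 84.2, 128 and 108 CPM in WT and 79.3, 105 and 94.3 CPM in NHD13. Both overlapped between the groups. Neither change passed the test: it was -0.28 for Slc2a1 (95% interval -0.74 to 0.19, adjusted p = 0.33) and -0.20 for Slc2a3 (-0.55 to 0.15, adjusted p = 0.351, edgeR). Per kilobase of transcript, Slc2a3 made up 87.5% ± 1.5 (SD, n = 3) of the pair in WT and 88.0% ± 4.73 (n = 3) in NHD13.

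The hexokinases changed in opposite directions. Hk1, the hexokinase of red cells and brain, on chromosome 10 (62268855 to 62379908, GRCm38), had 264, 271 and 255 CPM in WT replicates 1 to 3 and 356, 431 and 438 CPM in NHD13 replicates 1 to 3. All 3 NHD13 libraries were above all WT libraries, and the rise was 1.55-fold (log2 0.63, SE 0.08, adjusted p = 0.0017, edgeR). Hk2, the insulin- and hypoxia-responsive isozyme, on chromosome 6 (82725025 to 82774454), had 104, 102 and 103 CPM in WT and 92.2, 67.7 and 71.4 CPM in NHD13. It was lower in every NHD13 library, 1.34-fold (log2 -0.42, SE 0.11, adjusted p = 0.0233). Hk3, an isozyme found mainly in myeloid cells, on chromosome 13 (55005985 to 55021385), had 569, 569 and 538 CPM in WT and 520.5, 373 and 366 CPM in NHD13. It fell 1.33-fold (log2 -0.41, SE 0.13, adjusted p = 0.039), with NHD13 replicate 1 only slightly under WT.

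Per kilobase, which allows levels of different genes to be compared, Hk3 was the main hexokinase of WT cells. Its share of the 3 was 66.9, 66.6 and 66.3% in WT replicates 1 to 3 and 59.7, 48.3 and 47.3% in NHD13 replicates 1 to 3. The share of Hk1 was 26.0, 26.5 and 26.3% in WT and 34.2, 46.6 and 47.3% in NHD13, so that Hk1 reached the level of Hk3 in NHD13 replicates 2 and 3. Hk2 stayed the least of the 3, at 7.16% ± 0.241 in WT and 5.56% ± 0.549 in NHD13 (SD, n = 3 each). The sum of the 3 was 260.6 ± 7.38 CPM per kilobase in WT and 250.5 ± 17.8 in NHD13 (SD, n = 3 each), a difference within the spread of the NHD13 libraries.

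Phosphofructokinase, the committed step, is built from liver (Pfkl), muscle (Pfkm) and platelet (Pfkp) type subunits. Pfkm, on chromosome 15 (98092589 to 98132451), had 52.3, 60.2 and 61.8 CPM in WT replicates 1 to 3 and 83.0, 142 and 138 CPM in NHD13 replicates 1 to 3. The NHD13 libraries were all higher, by 2.08-fold, which was the largest rise among the 31 genes (log2 1.06, SE 0.19, 95% interval 0.63 to 1.48, adjusted p = 0.00506, edgeR). Pfkp, on chromosome 13 (6579768 to 6648777), had 85.9, 72.2 and 72.3 CPM in WT and 68.0, 40.5 and 39.7 CPM in NHD13. It was lower in all NHD13 libraries, by 1.56-fold (log2 -0.64, SE 0.19, adjusted p = 0.0377). Pfkl had 85.5, 89.7 and 85.7 CPM in WT and 84.8, 86.7 and 83.3 CPM in NHD13, and its change of -0.03 had a narrow 95% interval of -0.17 to 0.11 (adjusted p = 0.704).

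In WT the 3 subunits were near equal per kilobase, at 37.6% ± 0.85 for Pfkl, 32.5% ± 2.77 for Pfkm and 29.9% ± 3.16 for Pfkp (SD, n = 3). In NHD13 replicates 1, 2 and 3 Pfkm made up 42.4, 59.9 and 60.0% and Pfkp 24.1, 11.9 and 12.0%. The summed level was 62.0 ± 0.297 CPM per kilobase in WT and 76.6 ± 7.63 in NHD13 (SD, n = 3 each), with 68.0, 82.3 and 79.7 in the single NHD13 libraries, all above WT.

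Ratios within a library do not depend on how libraries are scaled. Of 16 isozyme pairs from 8 families, 6 did not overlap between the groups, where 46.1% of all single genes tested had no overlap. Each of these 6 had an exact two-sided permutation p = 0.1, the smallest that 3 against 3 can give (adjusted p = 0.267 over the 16 pairs). Pairs of a family share genes and restate the changes of single genes, so they are not separate results. The log2 ratio of Pfkm to Pfkp was -0.19, 0.26 and 0.30 in WT replicates 1 to 3 and 0.81, 2.33 and 2.32 in NHD13 replicates 1 to 3, a 3.24-fold shift. Hk1 to Hk2 and Hk1 to Hk3 each rose by 1.06 on the log2 scale, or 2.08-fold. Hk2 to Hk3 differed by 0.00 between the groups, lying between -3.27 and -3.14 in all 6 libraries. Thus the fall of Hk2 and that of Hk3 had the same size in these libraries. The other non-overlapping pairs were Pfkl to Pfkm (-1.05), Pfkl to Pfkp (0.65) and Slc16a1 to Slc16a3 (0.73).

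**Figure D3:**
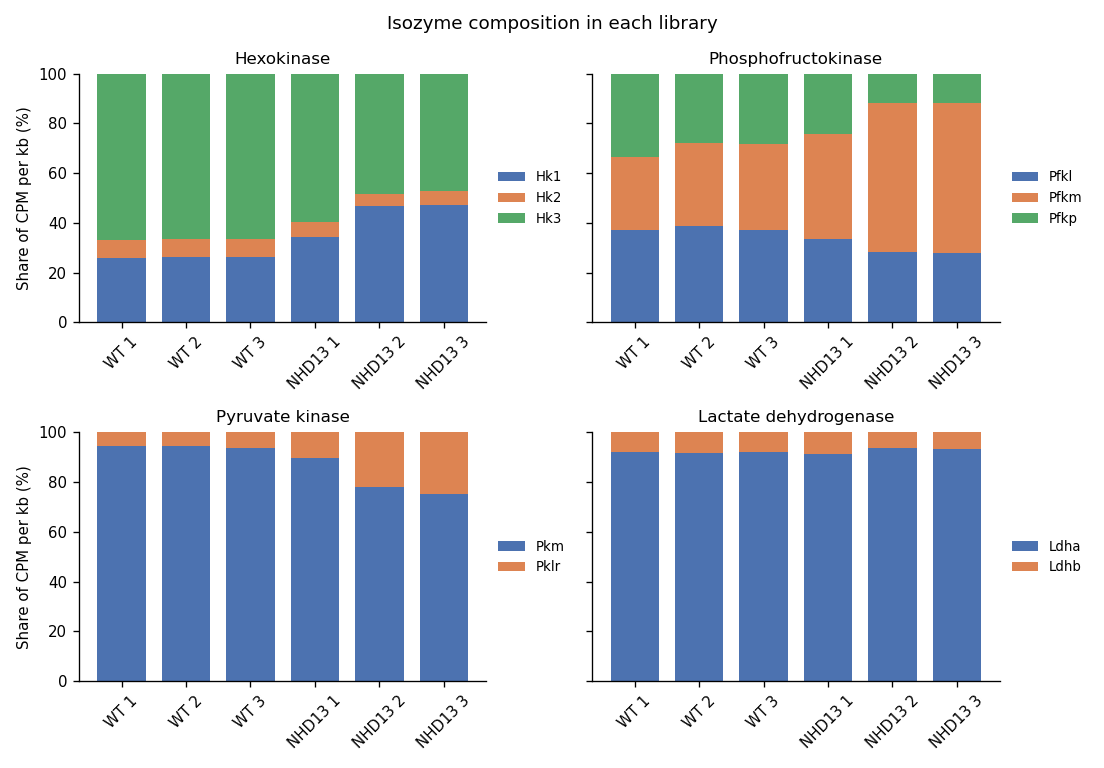
Share of each isozyme in the summed CPM per kilobase of its enzyme (y axis, %) in each library (x axis). Hk1 and Pfkm take larger shares in NHD13 replicates 2 and 3 than in WT, Pklr widens from 5.33 to 6.1% in WT to 24.8% in NHD13 replicate 3, and Ldha stays above 91% in all 6 libraries.

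Between hexokinase and phosphofructokinase stands glucose phosphate isomerase. Gpi1 had 1298, 1333 and 1212 CPM in WT replicates 1 to 3 and 1366, 1090.5 and 1026 CPM in NHD13 replicates 1 to 3, and its change of -0.14 did not pass (95% interval -0.38 to 0.09, adjusted p = 0.323, edgeR). The groups overlapped, with NHD13 replicate 1 the highest of all 6 libraries. The bifunctional enzymes that make and remove fructose 2,6-bisphosphate, the main activator of phosphofructokinase, did not pass either. Pfkfb3, the form with strong kinase activity, had 161, 134 and 134 CPM in WT and 159, 105 and 102 CPM in NHD13 (a log2 change of -0.23, adjusted p = 0.314). Pfkfb2 and Pfkfb4 changed by 0.09 (adjusted p = 0.645) and -0.22 (adjusted p = 0.112).

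The genes that split the hexose and interconvert its products did not pass the test. Aldoa, the main aldolase, had 518 to 543 CPM in WT and 451 to 531 CPM in NHD13 (a log2 change of -0.13, adjusted p = 0.213, edgeR). Aldoc, the brain form, had 0.558 to 1.19 CPM in WT and 0.556 to 0.691 CPM in NHD13 and was too low to be tested. Tpi1, triose phosphate isomerase, had 356 to 364 CPM in WT and 358 to 376 CPM in NHD13, a change of 0.03 with a 95% interval of -0.09 to 0.16 (adjusted p = 0.665).

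The payoff phase, where ATP and NADH are made, is served by 6 of the genes, of which Pgk1, Pgam1 and Pkm fell (beside 15.3% of all genes) and the others did not pass. Pgk1, phosphoglycerate kinase, the first ATP-yielding step, is on the X chromosome (106187100 to 106203699) and had 528, 561 and 568 CPM in WT replicates 1 to 3 and 507, 443 and 433 CPM in NHD13 replicates 1 to 3. Its fall was small, 1.20-fold (log2 -0.26, SE 0.07, adjusted p = 0.0301, edgeR). Pgam1, phosphoglycerate mutase, on chromosome 19 (41911923 to 41918660), had 606, 547 and 535 CPM in WT and 507, 325 and 323 CPM in NHD13, a fall of 1.46-fold (log2 -0.55, SE 0.16, adjusted p = 0.0352). In both genes the NHD13 libraries lay below WT, replicate 1 the closest to it. Gapdh, the NADH-making step often used as a reference gene, had 650.1 to 715 CPM in WT and 597 to 651 CPM in NHD13 (a log2 change of -0.12, 95% interval -0.27 to 0.03, adjusted p = 0.183). Eno1, the general enolase, was listed at only 15.1 to 17.9 CPM in WT and 15.4 to 19.4 CPM in NHD13 (a log2 change of -0.00, adjusted p = 0.995), or 8.38 CPM per kilobase in WT against 477.9 for Gapdh and 562.1 for Pkm. Of its transcript, 85.6% has a near-identical match of at least 95% identity in 3 other genes, so that its level in this table is uncertain. Eno3, the muscle enolase, changed by 0.21 (adjusted p = 0.423).

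Pyruvate kinase ends the path. Pkm, whose splice forms M1 and M2 were not separated in the table, is on chromosome 9 (59656368 to 59679375) and was the most abundant of the 32 genes in WT per kilobase. It had 1295, 1471 and 1335 CPM in WT replicates 1 to 3 and 1141, 921 and 806 CPM in NHD13 replicates 1 to 3. All NHD13 libraries were lower, by 1.43-fold (log2 -0.52, SE 0.12, 95% interval -0.79 to -0.24, adjusted p = 0.0136, edgeR). Pklr, the pyruvate kinase of red cells and liver, on chromosome 3 (89136142 to 89146784), is a related gene outside the 32 and had 87.0, 100.1 and 104 CPM in WT and 155, 311 and 317 CPM in NHD13. It rose 2.70-fold (log2 1.43, SE 0.24, adjusted p = 0.00424). Its share of the pyruvate kinase pair per kilobase was 5.33, 5.39 and 6.1% in WT and 10.2, 22.0 and 24.8% in NHD13, while the sum of the pair was 595.5 ± 39.5 CPM per kilobase in WT and 483.1 ± 41.1 in NHD13 (SD, n = 3 each). This pair was set side by side after its values were seen and was given no test of its own.

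Markers of other blood cell types also differed between the libraries. Summed CPM of 11 erythroid markers was 2173.6, 2211.9 and 2473.7 in WT replicates 1 to 3 and 2796.3, 4751.0 and 4541.3 in NHD13 replicates 1 to 3. Of 10 erythroid markers tested, 6 were higher in NHD13 and none lower, beside 15.0% of all genes higher and 15.3% lower. NHD13 replicates 2 and 3 were the highest in the summed level as they were in Hk1, Pfkm and Pklr. Among all genes past the threshold, 72.9% had NHD13 replicate 1 between WT and NHD13 replicates 2 and 3. The 14 neutrophil markers summed to 48926 to 63212 CPM in WT and 36765 to 39572 CPM in NHD13, with 8 lower and none higher. Monocyte and macrophage markers summed to 4119.9 to 6009.8 CPM in WT and 2524.2 to 2773.0 CPM in NHD13, with 8 of 9 lower. Among tested markers of the other lists, 6 of 6 multipotent progenitor, 6 of 6 basophil and mast cell and 7 of 8 dendritic genes were lower. So were 4 of 6 B-lymphoid, 3 of 6 T and NK and 1 of 3 stromal and endothelial genes. Of 7 megakaryocyte and platelet genes 1 was higher and 2 lower, and of 11 long-term HSC genes 2 were higher and 4 lower. No marker of these lists was at 0 in all libraries. Within the neutrophil list the libraries were ordered in different ways, as seen in 8 genes picked after their values were known. Against the WT mean, the primary granule genes Mpo, Elane, Prtn3 and Ctsg were at log2 0.24, 0.35, 0.17 and -0.18 in NHD13 replicate 1. In the mean of NHD13 replicates 2 and 3 they were at -0.66, -0.52, -0.74 and -1.19. For Hk3 the corresponding values were -0.10 and -0.60. S100a8, S100a9, Ngp and Ltf were instead lowest in NHD13 replicate 1. Of the rest of the list, Camp and Lcn2 were also lowest in that library, while Mmp8, Mmp9 and Retnlg were nearer to WT in it than in NHD13 replicates 2 and 3. Cxcr2 was at -0.36 in NHD13 replicate 1 and at -0.24 in the mean of NHD13 replicates 2 and 3. The part of these cell types in the changes of Hk1, Hk3, Pfkm, Pfkp, Pkm and Pklr was not tested.

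**Figure D4:**
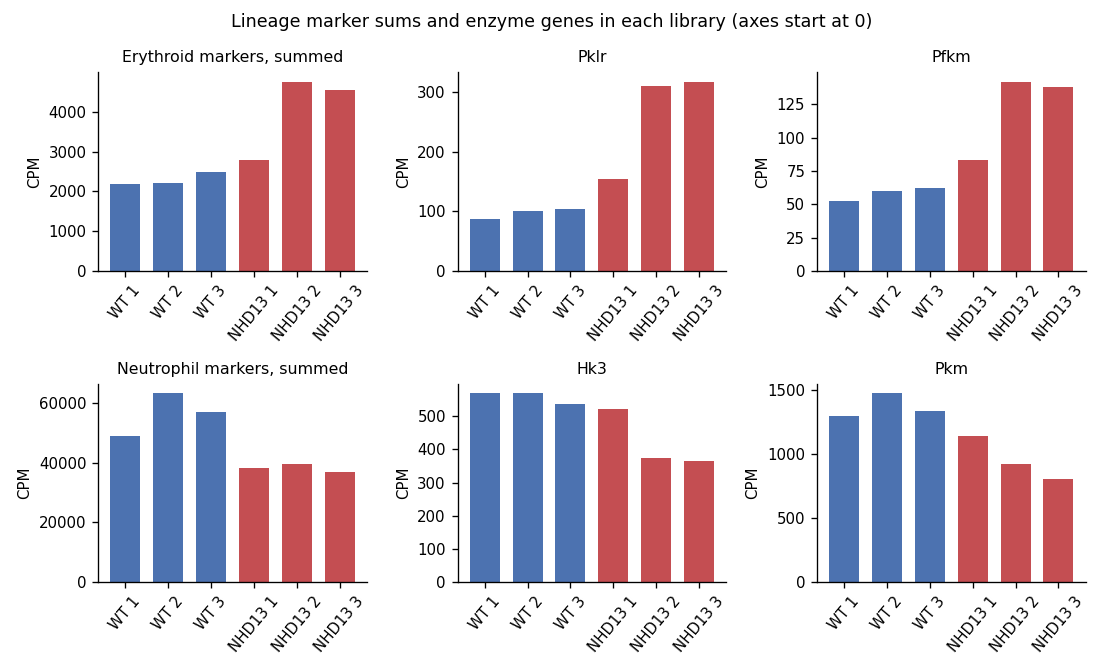
Summed CPM of erythroid and of neutrophil markers and CPM of Pklr, Pfkm, Hk3 and Pkm (y axes, all from 0) in each library (x axis), blue WT and red NHD13. The erythroid sum, Pklr and Pfkm are highest in NHD13 replicates 2 and 3, and the neutrophil sum is 36765 to 39572 in all 3 NHD13 libraries.

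Lactate dehydrogenase did not pass the test. Ldha, the subunit that favours lactate, had 611, 667 and 640.4 CPM in WT replicates 1 to 3 and 627, 679 and 654 CPM in NHD13 replicates 1 to 3. Its change was 0.03 with a 95% interval of -0.11 to 0.17 (adjusted p = 0.726, edgeR). Ldhb, the subunit that favours pyruvate, changed by -0.11 (adjusted p = 0.475), and Ldha made up 92.1% ± 0.126 of the pair per kilobase in WT and 92.7% ± 1.27 in NHD13 (SD, n = 3 each). The pyruvate dehydrogenase kinases also did not pass. Pdk1, a target of hypoxia signalling, had 74.9 to 81.1 CPM in WT and 74.8 to 101 CPM in NHD13 (a log2 change of 0.20, adjusted p = 0.195). Pdk3, the most abundant of the 3 per kilobase and X-linked, changed by -0.00 (95% interval -0.18 to 0.17, adjusted p = 0.972). Pdk2, the least abundant, changed by 0.33 with a wide interval of -0.20 to 0.86 (adjusted p = 0.305).

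Of the lactate carriers, Slc16a1 rose and Slc16a3 did not pass the test. Slc16a1 (MCT1), which moves lactate and pyruvate either way and is found on red cells, lies on chromosome 3 (104638668 to 104658462). It had 156, 141 and 158 CPM in WT replicates 1 to 3 and 198, 247 and 244 CPM in NHD13 replicates 1 to 3. The rise was 1.52-fold, present in all NHD13 libraries (log2 0.60, SE 0.10, adjusted p = 0.00355, edgeR). Slc16a3 (MCT4), a carrier suited to lactate export, had 36.4, 52.8 and 40.9 CPM in WT and 38.2, 42.5 and 36.9 CPM in NHD13 (a log2 change of -0.15, adjusted p = 0.43). The carriers need a partner at the membrane. Bsg (basigin), the usual partner of Slc16a1, had 236, 242 and 257 CPM in WT and 283, 339.6 and 335 CPM in NHD13 and rose 1.30-fold (log2 0.38, adjusted p = 0.0101). Emb (embigin), the alternative partner, had 354, 361 and 387 CPM in WT and 207, 107 and 119 CPM in NHD13 and fell 2.55-fold (log2 -1.35, SE 0.22, adjusted p = 0.0036). Per kilobase Emb had 125.7 CPM and Bsg 160.5 CPM in WT, against 49.4 and 209.1 in NHD13.

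In the pentose phosphate path the entry enzyme fell and the others did not pass the test. G6pdx, glucose-6-phosphate dehydrogenase, the rate-limiting source of NADPH, is on the X chromosome (74409483 to 74429194) and had 345, 416 and 389 CPM in WT replicates 1 to 3 and 297, 333 and 299 CPM in NHD13 replicates 1 to 3. All NHD13 libraries were lower, by 1.24-fold (log2 -0.31, SE 0.08, adjusted p = 0.0249, edgeR). Xist had 34, 28 and 9885 counts in the same NHD13 replicates 1 to 3. Whether the fall of G6pdx goes with the sex of the animals was not tested. Pgd, the second NADPH-making step, had 547, 575 and 560.0 CPM in WT and 601, 498 and 477 CPM in NHD13 (a log2 change of -0.09, adjusted p = 0.446). In the non-oxidative part, Tkt (transketolase) had 1204, 1354 and 1259.7 CPM in WT and 1242, 1324 and 1261 CPM in NHD13, a change of 0.00 with a 95% interval of -0.14 to 0.15 (adjusted p = 0.972). Taldo1 (transaldolase) changed by 0.13 (95% interval -0.03 to 0.29, adjusted p = 0.182).

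Some of these values could hold reads of other genes or lack reads of their own. A total of 9 of the 32 genes have a stretch of at least 100 bases with 95% identity elsewhere in the annotated transcripts: Gapdh in 81 other genes, covering 88.0% of its transcript, Eno1, Pgk1 (68.8%), Pkm (65.5%), Ldhb (76.8%), Ldha (56.6%), Gpi1 (50.2%), Pgam1 (43.1%) and Tpi1 (19.3%). Among the 10 genes that moved, exons of Hk3, Pfkm, Pfkp and G6pdx share bases with a gene of the table on the other strand, and whether the counting used strand is not given in the sources used here. Pfkm overlaps Senp1, which had 127.2 CPM in WT and 130.0 CPM in NHD13 (a log2 change of 0.03, adjusted p = 0.727, edgeR). Pfkp overlaps Pitrm1, which moved against it, from 156.3 to 234.6 CPM (log2 0.59, adjusted p = 0.00709). Unc5a, beside Hk3, had 1.55 CPM in WT, and Ikbkg, beside G6pdx, had 65.3 CPM in WT and 65.1 CPM in NHD13.

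Around the 32 genes, 89 related genes of glucose, pyruvate, ribose and glycogen metabolism and of its regulation had a row, and 71 were tested. Of these, 13 rose and 16 fell, 40.8% against 30.3% of all genes, with a median change of -0.13 against 0.0 over all genes. The counts by group that follow rest on few genes each and stand beside 15.0% of all genes higher and 15.3% lower, so that no direction of a group is read from them. Among 6 tested glucose transporters, 2 rose and 2 fell. Slc45a4, a proton-coupled sugar transporter, rose 1.39-fold (log2 0.48, adjusted p = 0.00296, edgeR), and Slc2a8 (GLUT8), an intracellular transporter, rose 1.82-fold (adjusted p = 0.0118). Slc2a6 (GLUT6), a lysosomal transporter, fell 1.94-fold from 5.97 to 3.10 CPM (adjusted p = 0.0102).

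Of 8 further glycolytic isozymes tested, 2 rose and 2 fell. Beside Pklr, the mitochondrial phosphatase Pgam5, which carries the mutase name but does not serve glycolysis, rose 1.24-fold (adjusted p = 0.0218, edgeR). Ldhc, the testis form of lactate dehydrogenase, fell 3.52-fold from a low 2.53 CPM to 0.710 CPM (log2 -1.82, adjusted p = 0.00211). Of 11 genes for the entry of pyruvate into mitochondria, Dlat, the acetyltransferase core of pyruvate dehydrogenase, rose 1.22-fold (adjusted p = 0.015). Pdp1, the phosphatase that switches that complex on, fell 1.56-fold (adjusted p = 0.00598, edgeR). Mpc2, a subunit of the mitochondrial pyruvate carrier, fell 1.20-fold (adjusted p = 0.042, edgeR), and passed in 9 of the 16 alternative analyses described below. Slc16a10, an aromatic amino acid carrier of the same family as the lactate carriers, rose 1.42-fold (adjusted p = 0.00558).

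Of 10 further pentose and ribose phosphate genes tested, 3 rose and none fell, a share no higher than the 30.3% of all genes that passed. These were Rpia, which makes ribose 5-phosphate, from 201 to 238 CPM (log2 0.24, adjusted p = 0.0173, edgeR), Prps1, which activates it for nucleotide synthesis, from 81.6 to 96.8 CPM (log2 0.25, adjusted p = 0.0277), and Prps1l3, a close relative of Prps1, from 110.2 to 135 CPM (log2 0.30, adjusted p = 0.0343). Prps1 and Prps1l3 did not pass under upper-quartile scaling. The search for near-identical copies covered the 32 genes only, so whether Prps1 and Prps1l3 share reads was not tested. Of 13 glycogen and glucose 1-phosphate genes, 1 rose and 3 fell. Ugp2, which makes UDP-glucose, fell 1.30-fold (adjusted p = 0.013), and Pgm2, a phosphoglucomutase, fell 1.39-fold (adjusted p = 0.0232). Pgm5, a relative without clear mutase activity, had 2 counts over the 3 WT libraries and 71 over the 3 NHD13 libraries, a ratio of 33.9 with an exact 95% counting interval of 9.05 to 285.4 (adjusted p = 0.000825). None of 3 gluconeogenic genes passed; the most abundant, Pck2, the mitochondrial carboxykinase, went from 93.0 to 114 CPM (adjusted p = 0.0565).

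Of 13 regulators of glycolysis tested, 1 rose and 5 fell, 46.2% against 30.3% of all genes. The change was below 0 in 11 of the 13, and in 5992 of all 12013 genes. Hif1a is the oxygen-regulated subunit of the hypoxia factor. Its CPM was 100.2, 84.3 and 94.5 in WT replicates 1 to 3 and 78.9, 49.7 and 54.1 in NHD13 replicates 1 to 3. It fell 1.53-fold (log2 -0.61, adjusted p = 0.0222, edgeR), and this fall passed in 9 of the 16 alternative analyses described below. Txnip, which restrains glucose uptake and is induced by glucose, had 126 to 150.5 CPM in WT and 94.1 to 104 CPM in NHD13 and fell 1.37-fold (log2 -0.46, adjusted p = 0.00636). Myc, an activator of many glycolytic genes, had 144 to 194 CPM in WT and 134 to 179.9 CPM in NHD13 and did not pass (log2 -0.09, 95% interval -0.39 to 0.21, adjusted p = 0.636). Of the catalytic subunits of the energy sensor AMPK, Prkaa1 rose 1.33-fold (adjusted p = 0.00751), and Prkaa2 had 36 counts over the WT libraries and 3 over the NHD13 libraries, 12.6-fold lower with an exact 95% counting interval of 3.97 to 63.8 (adjusted p = 0.00173). Counting intervals cover counting error only.

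The number of genes past the threshold moved with the libraries used, as it did over all genes. Without NHD13 replicate 1, 8 of the 32 genes were higher and 13 lower, where 48.7% of all genes passed, and without replicate 1 of both groups 6 were higher and 16 lower, where 53.3% passed. Without WT replicate 2 or 3 the 3 rises passed and none of the 7 falls did, where 14.7% of all genes passed in either case. Without WT replicate 1, NHD13 replicate 2 or NHD13 replicate 3 the 3 rises and 4, 1 and 1 falls passed, beside 23.1, 15.0 and 15.9% of all genes. The 3 rises and 4 falls passed without a low-count filter (21.6% of all genes), and 3 and 8 with the replicate number as a block (35.3%). Under the other scalings, DESeq2's test, limma-voom and a stricter low-count filter 3 and 7 passed, beside 29.6 to 30.1% of all genes. Hk1, Pfkm and Slc16a1 passed in 15 of 16 alternative analyses, all but the one with the Y-linked covariate.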

How the data were processed

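RNA from 3 WT and 3 NHD13 libraries was sequenced on a HiSeq instrument, per the labels. The authors deposited a table of raw counts per gene symbol. The submitters' processing notes name Bowtie2 2.2.1, HTSeq 0.5.4p3 and the mm10 build; neither the gene annotation nor the strand setting of the counting is given in the sources used here. The columns of NHD13 were matched to their libraries by letter and replicate number.

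Of 17523 rows, 719 were 0 in every library and none lacked a gene name; 12013 genes passed edgeR's filterByExpr (minimum count 10) and 5510 were set aside. Counts were scaled by TMM and tested with edgeR 4.0.16 (robust quasi-likelihood test, R 4.3.3), with Benjamini-Hochberg adjustment over all tested genes and a threshold of 0.05. DESeq2 1.42.0 and limma 3.58.1 were alternatives. The fit was tested on simulated data. Reported fold changes come from this fit, CPM values are descriptive, and an SD is over 3 libraries.

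Levels per kilobase used the longest transcript of the best APPRIS class in GENCODE vM21 (GRCm38), to which 16333 symbols matched directly, 972 by an older symbol and 218 not. Isozyme ratios needed at least 10 counts in each library and were tested by exact two-sided permutation (scipy 1.17.1). Near-identical copies were searched with blastn. Intervals are at 95%.

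The 32 genes and the lists of related and marker genes were chosen with earlier results of these data known. Of 94 related and 111 marker symbols listed, 5 and 4 had no matched row. All 32 genes were named; of the related genes, up to 3 per group with the lowest adjusted p past the threshold or else the most abundant one, and always Hif1a, Myc and Txnip.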

Additional observations from a re-analysis of the deposited data

How the results depend on the processing

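Changes of scaling, test, filter, library set or model term gave 16 alternative fits. Other scaling (DESeq2's, upper-quartile or none), DESeq2's or limma-voom's test and a minimum count of 30 kept 3 of the 32 genes higher and 7 lower. No sign of a change past the threshold reversed. Without a low-count filter 4 were lower, Hk3, Pfkp and Pgam1 no longer passing. Leaving out 1 library at a time gave 760 to 3012 genes higher and 957 to 2966 lower in all (1799 and 1839 with every library), 3 to 8 of the 32 higher and 0 to 13 lower, and 5 to 22 related genes higher and 6 to 30 lower. The highest of each came without NHD13 replicate 1. Without WT replicate 1, 4 of the 32 were lower; without NHD13 replicate 2 only G6pdx was, and without NHD13 replicate 3 only Pkm. Leaving out 1 library gave 6 to 14 of the 16 isozyme pairs without overlap. Without replicate 1 of both groups 3244 genes were higher and 3245 lower, of the 32 genes 6 and 16, and of the related genes 23 and 33. Under the covariate for Y-linked counts 111 genes were higher and 175 lower, none of the 32 passed, and 1 related gene, Pgm5, was higher and 0 lower; the cause was not tested. Deviations of same-numbered libraries from their group means correlated at 0.249, 0.0632 and 0.175. Differently numbered libraries were not compared, so these values cannot show whether the replicate numbers pair the libraries. With the replicate block 2007 genes were higher and 2233 lower, and 3 and 8 of the 32, Pfkfb3 being added. With 3 libraries a group, changes as small as that of Pgk1 passed or failed with the library set, and low genes such as Aldoc could not be tested.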
